A study of Mus musculus with 6 samples.

Results

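Fatty acid oxidation was followed through 9 transcripts of mouse embryonic fibroblasts: the carnitine palmitoyltransferases Cpt1a, Cpt1b, Cpt1c and Cpt2, the acyl-CoA dehydrogenases Acadm, Acadl and Acadvl, and the trifunctional protein subunits Hadha and Hadhb. They were taken by gene symbol from a table of 21853 genes, and each symbol stood on 1 row. All 9 had a mean of at least 1 FPKM (a level in fragments, corrected for transcript length and sequencing depth), as did 10870 genes of the table. Every library came from fibroblasts of the C57BL/6J strain in which xCT, the cystine transporter subunit encoded by Slc7a11, had been knocked out, so the controls carried the deletion too. The control group was given water (n = 3) and the other group red clover extract (RCE, n = 3). The labels give an age of 12 days for both groups. The sources used here give no dose or exposure time, and do not say whether replicates were separate cultures, so each p-value rests on variation among 6 libraries that may be technical.

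Long-chain fatty acids enter mitochondria as carnitine esters. CPT1, on the outer membrane, makes the ester and is inhibited by malonyl-CoA, the carrier Slc25a20 takes it across the inner membrane, and CPT2 turns it back into acyl-CoA. CPT1A is the widely expressed form, CPT1B the form of muscle and heart, and CPT1C a form best known from neurons, which sits on the endoplasmic reticulum and has little acyltransferase activity. Inside the matrix, acyl-CoA dehydrogenases for very long (Acadvl), long (Acadl) and medium chains (Acadm) start each round of β-oxidation, and the trifunctional protein, built from HADHA and HADHB, carries out the later steps on long chains. Oxidation of polyunsaturated fatty acids competes with their use in membrane lipids, the substrates of the peroxidation that drives ferroptosis, the cell death that loss of xCT favours.

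The check of genotype and cell type came first. Slc7a11 lay between 0.007 and 0.037 FPKM in all 6 libraries. Fibroblast markers were present (9 of 9 with a mean of at least 1 FPKM, summed level 4140 to 4270 FPKM in control and 3820 to 3910 FPKM with RCE). Depth, read from the steps between low values, was 45650000 to 58950000 fragments per library. At that depth Cpt1b, the scarcest of the 9, rested on about 156 to 312 fragments in a library, a counting error of 8.01% at the lowest. The other 8 had about 877 or more, a counting error of at most 3.38%.

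The promoters shown here are those of both abundant CPT1 isoforms, of Acadm, and the stretch that Hadha and Hadhb share. RefSeq promoter windows (GRCm38.p6, 300 bases each, from 250 before to 50 after the annotated start) were found for 8 of the 9 genes, all but Cpt1b. Printed are the bases before the start that no GENCODE M21 exon covers, in lower case, with the nuclear receptor half-site AGGTCA (either strand) in capitals. Cpt1a lies at chr19:3323051-3323284 on the plus strand, inside the annotated span of the gene, which has a further start upstream, Cpt1c at chr7:44974852-44975101 on the minus strand and Acadm at chr3:153944644-153944893 on the minus strand. The fourth stretch, chr5:30155163-30155247 on the plus strand, is everything between the exons of Hadha, which runs to the left on the minus strand, and of Hadhb, which runs to the right on the plus strand.
Cpt1a: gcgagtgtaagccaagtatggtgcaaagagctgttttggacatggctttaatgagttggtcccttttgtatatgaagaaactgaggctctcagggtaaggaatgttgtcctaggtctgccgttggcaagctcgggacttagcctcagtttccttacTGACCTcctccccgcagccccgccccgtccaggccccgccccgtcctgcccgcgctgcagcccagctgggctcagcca
Cpt1c: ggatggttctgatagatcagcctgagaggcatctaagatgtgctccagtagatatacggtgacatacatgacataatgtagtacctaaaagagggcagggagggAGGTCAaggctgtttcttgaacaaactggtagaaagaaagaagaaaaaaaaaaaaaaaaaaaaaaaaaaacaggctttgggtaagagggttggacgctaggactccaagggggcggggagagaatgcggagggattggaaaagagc
Acadm: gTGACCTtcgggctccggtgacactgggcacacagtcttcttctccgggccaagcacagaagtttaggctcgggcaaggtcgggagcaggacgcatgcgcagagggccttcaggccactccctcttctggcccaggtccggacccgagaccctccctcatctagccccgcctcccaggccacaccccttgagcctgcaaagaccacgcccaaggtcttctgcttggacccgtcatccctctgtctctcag
Hadha and Hadhb: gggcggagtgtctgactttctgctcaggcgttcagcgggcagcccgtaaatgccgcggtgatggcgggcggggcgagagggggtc
The half-site was in 4 of the 8 windows (Cpt1a, Cpt1c, Acadm and Acadvl), against 16.3% of 32851 RefSeq windows of the same length. The PPAR direct repeat, 2 copies of it with 1 base between them, the form that PPAR factors bind, was in 0 of 8 (0.0396% of all windows), and the longer TNAAGGTCA of the estrogen-related receptors, which contains the half-site, in 0 of 8 (1.28%). The core ACGTG of the hypoxia-inducible factors was in 1 of 8, Acadvl (19.6%). All motifs were searched on both strands and counted only where every fixed letter matched. The PPAR repeat was so rare in all windows that 0 of 8 tells little, and looser sites were not searched. All counts here are of matched letters in a short window and say nothing of binding.

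Acadvl, Acadl and Hadha were the most abundant, with means over 6 libraries of 29.0, 27.5 and 26.4 FPKM, and their ranges overlapped. Cpt1c (19.2 FPKM), Hadhb (17.0 FPKM), Cpt1a (12.3 FPKM) and Acadm (12.1 FPKM) followed, each below every library of the first 3 genes. Among these the range of Hadhb, 13.5 to 19.5 FPKM, overlapped those of Cpt1c and Acadm, and Cpt1a overlapped Acadm. Cpt2 (8.64 FPKM) and Cpt1b (1.55 FPKM) each lay below every library of the genes ranked before. Cpt1c transcripts were more abundant than Cpt1a transcripts in 6 of 6 libraries.

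With the extract, Cpt1b, Cpt1c and Acadl rose, and the other 6 genes did not pass the test. By limma on log2(FPKM + 1), adjusted over 10870 genes by the Benjamini-Hochberg method, 3 of 9 passed an adjusted p of 0.05 upward and 0 downward, where 17.6% of all tested genes were higher and 6.77% lower. At an unadjusted p below 0.05, 4 of the 9 were higher and 0 lower. The share of all tested genes at that unadjusted p was not counted, for this count or for those below. Without control replicate 2, control replicate 3 or RCE replicate 2, 1 of 9 passed the adjusted p of 0.05, Cpt1b. For 5 of the 9 (Cpt1a, Cpt1b, Cpt1c, Cpt2 and Acadl) the lowest RCE library exceeded the highest control library, as it did for 31.2% of all tested genes, and for 0 of the 9 was it the other way round (10.9%). All 9 changes were above 0, as were 70.2% of those of all tested genes. The median log2 change of the 9 was 0.09 and that of all tested genes 0.08, so the set as a whole sat at the middle of the distribution. With replicate number as a block, 5 of 9 were higher, Cpt1a and Cpt2 added, beside 46.6% of all genes (15.9% lower). The libraries numbered 1 deviated together, while those numbered 2 and 3 were no more alike within a number than across numbers. With median-of-ratios scaling, which moves the median of all genes to 0.00, Cpt1b alone was called, beside 8.4% of all genes higher and 9.95% lower. All changes below are RCE minus control on the log2(FPKM + 1) scale, which understates the change of low genes.

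**Figure D1:**
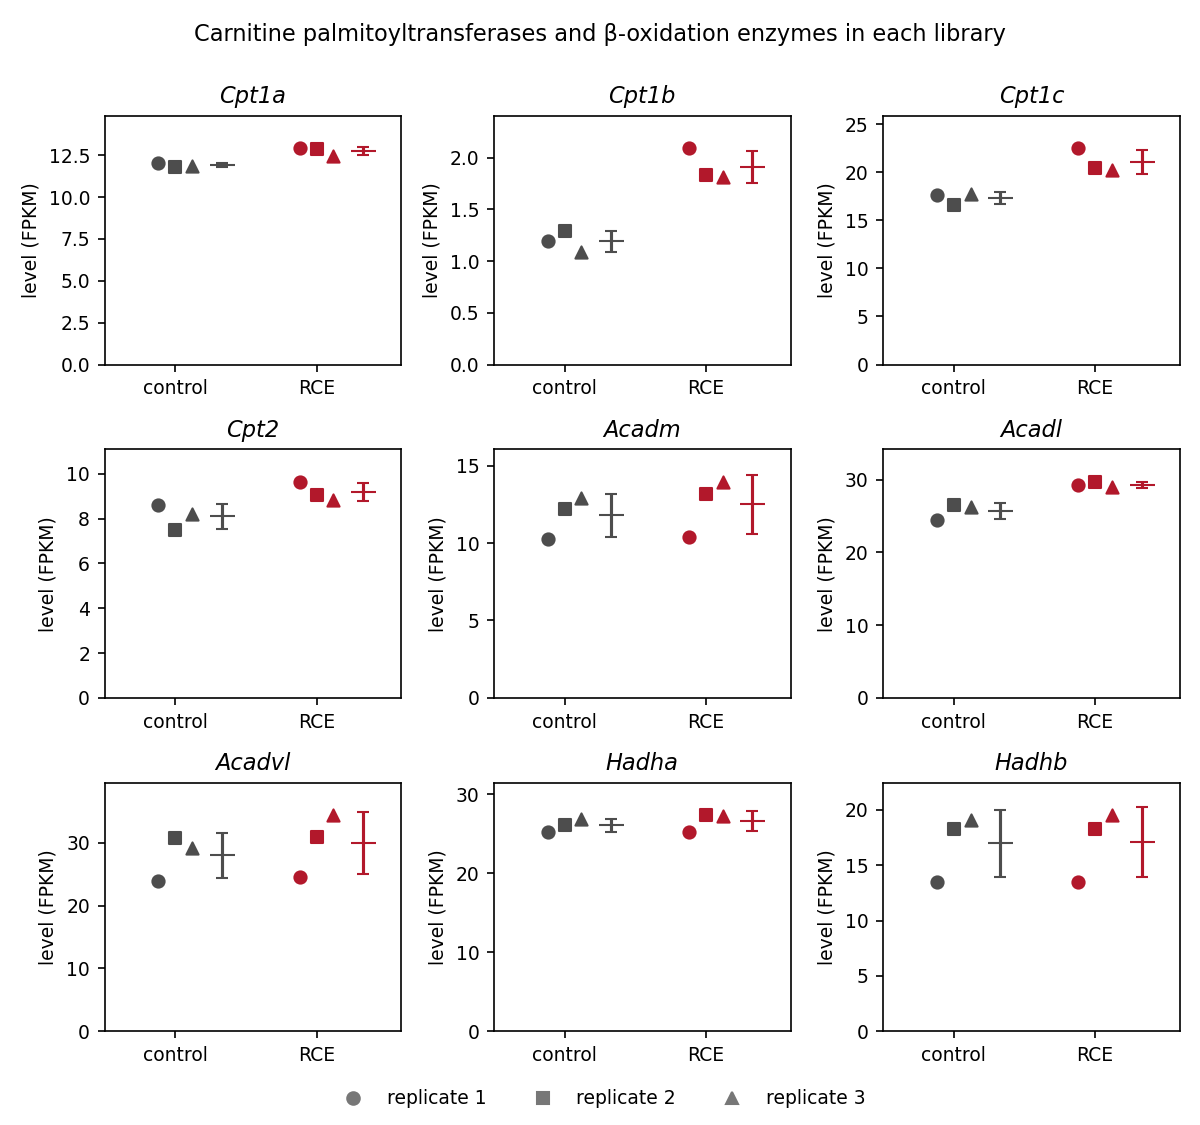
Level in FPKM (vertical axis from 0) of the 9 genes in each of the 6 libraries, control in grey and RCE in red, with a symbol for each replicate number and the mean ± SD (n = 3) at the right of each group. Cpt1a, Cpt1b, Cpt1c, Cpt2 and Acadl separate by group, while Acadm, Acadvl and Hadhb separate replicate 1 from replicates 2 and 3 in both groups.

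Cpt1b, the muscle isoform (ENSMUSG00000078937, chromosome 15, 89416405 to 89425863, mm10), changed most. It stood at 1.20, 1.29 and 1.09 FPKM in control replicates 1, 2 and 3 and at 2.09, 1.83 and 1.81 FPKM in RCE replicates 1, 2 and 3. Every RCE library was above every control library, and the mean with RCE was 160.1% of that of control (1.19 ± 0.102 to 1.91 ± 0.154 FPKM, SD, n = 3). The log2 change of 0.41 (SE 0.06, 95% interval 0.27 to 0.54, limma adjusted p = 0.005) was above that of 97.7% of tested genes. It passed the threshold in all 18 other settings in which it was tested, with changes from 0.30 to 0.64. A transcript joining Chkb, the choline kinase gene upstream, to Cpt1b is annotated as a gene of its own (Gm44502) that covers 81.38% of the exon bases of Cpt1b and is not used here, and fragments of both cannot be told apart. Chkb itself averaged 12.1 ± 0.177 FPKM in control and 13.3 ± 1.06 FPKM with RCE (log2 change 0.13, limma adjusted p = 0.17). Every RCE library of Chkb was above every control library. Chkb passed with the replicate block (adjusted p = 0.0151) and not with median-of-ratios scaling (0.05, adjusted p = 0.585). In bulk RNA, a change in the number of cells of a type and a change per cell cannot be told apart. Muscle markers summed to 117 to 136 FPKM in control and 126 to 147 FPKM with RCE. This sum came from Acta1 and Des, 2 of the 7 markers. The others were below 1 FPKM in every library, with Myod1, which commits cells to muscle, at 0 in all 6 and Myog, Ckm and Myh3 at most 0.019 FPKM. Acta1 overlapped between the groups, at 91.0, 85.1 and 78.5 FPKM in control and 88.1, 76.4 and 79.8 FPKM with RCE. Tnnt2 was lower with RCE (0.60, 0.49 and 0.28 FPKM, against 0.95, 0.72 and 0.64 FPKM in control). Des, an intermediate filament gene also found in contractile fibroblasts, was at 44.3, 38.5 and 37.7 FPKM in control and 57.8, 49.5 and 51.9 FPKM with RCE. Its part in the result was not tested.

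Cpt1c (ENSMUSG00000007783, chromosome 7, 44959372 to 44974851) rose from a higher level. Control libraries held 17.6, 16.6 and 17.8 FPKM and RCE libraries 22.5, 20.5 and 20.2 FPKM, with no overlap. The log2 change was 0.27 (SE 0.06, 95% interval 0.13 to 0.40, limma adjusted p = 0.0184), from 17.3 ± 0.64 to 21.1 ± 1.23 FPKM (SD, n = 3). Median-of-ratios scaling ended the call of Cpt1c (0.19, adjusted p = 0.0996). So did leaving out control replicate 2 (adjusted p of 0.0743), control replicate 3 (0.0558) or RCE replicate 2 (0.0621). An antisense gene, 6530437J22Rik, shares 6.53% of its exon bases and was not used here. Neuronal markers summed to less in every RCE library (3.94 to 3.99 FPKM in control and 2.43 to 3.22 FPKM with RCE), with Stmn2 alone of the 5 above 1 FPKM on average, with Rbfox3 at most 0.004 and Snap25 at most 0.029 FPKM.

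Cpt1a (ENSMUSG00000024900, chromosome 19, 3322334 to 3385733), the rate-setting isoform of most tissues, differed little. Its values were 12.0, 11.8 and 11.9 FPKM in control and 12.9, 12.9 and 12.5 FPKM with RCE. The groups did not overlap, but the log2 change was 0.09 (SE 0.04, 95% interval -0.0011 to 0.18), close to the median of all genes, and did not pass (limma adjusted p = 0.135). It passed with the replicate block (adjusted p = 0.0221), and with median-of-ratios scaling it was 0.01 (adjusted p = 0.905, and 0.789 with the block as well). Cpt2 (ENSMUSG00000028607, chromosome 4, 107903981 to 107923610), the single enzyme of the inner membrane, stood at 8.58, 7.48 and 8.22 FPKM in control and 9.64, 9.05 and 8.85 FPKM with RCE. Its log2 change of 0.16 (SE 0.06, 95% interval 0.02 to 0.31) also missed the threshold (limma adjusted p = 0.099), and passed with the block (adjusted p = 0.00495) and without both libraries numbered 1 (0.0164). With median-of-ratios scaling the change was 0.09 (adjusted p = 0.458), and the blocked call ended when that scaling (0.0818) or GC correction (0.0675) was added.

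The summed CPT1 level was 30.8, 29.7 and 30.7 FPKM in control and 37.5, 35.2 and 34.5 FPKM with RCE, and most of the difference lay in Cpt1c. FPKM are per length, so isoforms can be compared within a library. Cpt1a made up 39.0, 39.8 and 38.7% of the sum in control and 34.4, 36.6 and 36.1% with RCE. The share of Cpt1a was thus lower in every RCE library (39.2 ± 0.575% against 35.7 ± 1.12%, SD, n = 3; 2-sided exact permutation test p = 0.1, the smallest that 3 against 3 can give). Cpt1c held 55.9 to 57.8% in control and 58.2 to 60.0% with RCE, and Cpt1b 3.55 to 4.36% and 5.21 to 5.57%. The ratio of Cpt1c to Cpt1a was 1.45 ± 0.0462 in control and 1.65 ± 0.0786 with RCE. Of 8 such shares, sums and ratios compared, these 5 had an exact permutation p = 0.1 each, which is 0.16 after Benjamini-Hochberg adjustment over the 8. The shares within a library do not depend on the scaling between libraries.

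**Figure D2:**
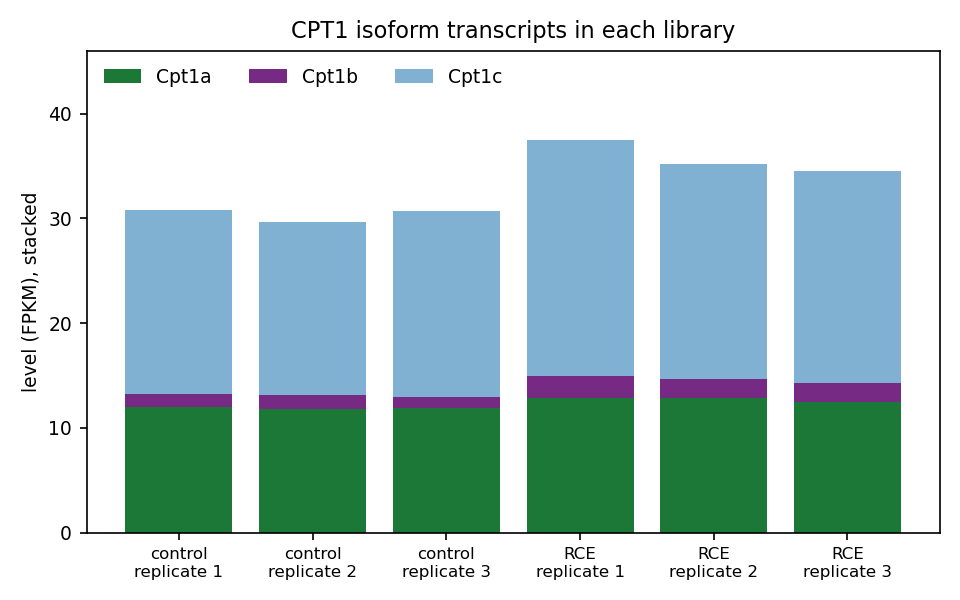
Stacked bars of the FPKM of Cpt1a, Cpt1b and Cpt1c in each library (vertical axis from 0). The Cpt1a part is 11.8 to 12.9 FPKM in all 6 libraries, the Cpt1b part is thin throughout, and the Cpt1c part is taller in the 3 RCE bars.

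Among the acyl-CoA dehydrogenases, Acadl (ENSMUSG00000026003, chromosome 1, 66830839 to 66863277) was the one that rose. It measured 24.5, 26.5 and 26.3 FPKM in control and 29.2, 29.7 and 28.9 FPKM with RCE. All RCE values were above all control values, and the log2 change was 0.18 (SE 0.05, 95% interval 0.07 to 0.29, limma adjusted p = 0.0356; 25.8 ± 1.10 to 29.3 ± 0.386 FPKM, SD, n = 3). The call was close to the threshold. It ended when any 1 of the 6 libraries was left out (adjusted p = 0.0578 to 0.138), and with median-of-ratios scaling (0.10, adjusted p = 0.192) or GC correction (0.09, 0.212). It held with the replicate block (adjusted p = 0.0012).

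Acadm (ENSMUSG00000062908, chromosome 3, 153922357 to 153944632) and Acadvl (ENSMUSG00000018574, chromosome 11, 70010183 to 70015411) varied more with the replicate number than with the treatment. Acadm was at 10.3, 12.2 and 12.9 FPKM in control replicates 1, 2 and 3 and at 10.4, 13.2 and 14.0 FPKM in the RCE replicates. Acadvl was at 23.9, 30.8 and 29.2 FPKM in control and 24.6, 30.9 and 34.4 FPKM with RCE. For both, replicate 1 was the lowest library of each group and the groups overlapped, although each RCE library was above the control library of its number in 3 of 3 pairs. Their log2 changes were 0.07 (SE 0.125, 95% interval -0.23 to 0.375, limma adjusted p = 0.711) and 0.09 (SE 0.14, 95% interval -0.25 to 0.43, adjusted p = 0.689), and neither passed with the replicate block (adjusted p = 0.0702 and 0.093). With median-of-ratios scaling the changes were -0.01 and 0.01. Dvl2, a WNT signalling gene on the opposite strand, shares 42.85% of the exon bases of Acadvl, and whether counting used strand was not given in the sources used here. Dvl2 was at 11.9, 11.2 and 11.1 FPKM in control and 11.0, 11.3 and 11.0 FPKM with RCE, without the low values of replicate 1.

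**Figure D3:**
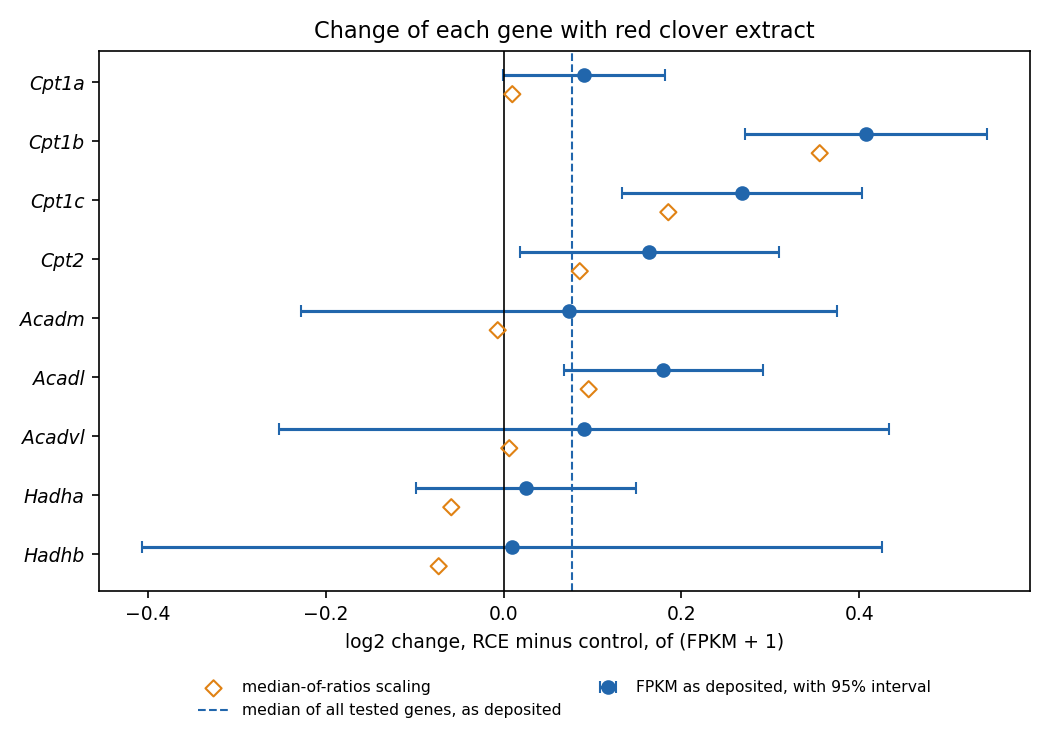
Log2 change of each of the 9 genes, RCE minus control, with its 95% interval (filled circles, FPKM as deposited) and after median-of-ratios scaling (open diamonds); the dashed line is the median of all tested genes. The interval of Cpt1b, 0.27 to 0.54, lies farthest from 0, and those of Hadhb, Acadvl and Acadm are the widest.

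The trifunctional protein subunits did not pass the test and had the smallest changes of the 9. Hadha (ENSMUSG00000025745, chromosome 5, 30118304 to 30155162) stood at 25.3, 26.2 and 26.9 FPKM in control and 25.2, 27.4 and 27.3 FPKM with RCE (log2 change 0.03, SE 0.05, 95% interval -0.10 to 0.15, limma adjusted p = 0.765), and on median-of-ratios scaling it stood at -0.06. Hadhb (ENSMUSG00000059447, chromosome 5, 30155248 to 30184593) stood at 13.5, 18.3 and 19.1 FPKM in control and 13.5, 18.3 and 19.5 FPKM with RCE. Same-numbered libraries of the 2 groups differed by -0.017, 0.005 and 0.41 FPKM, while replicate 1 lay far below the others in both groups. Its log2 change was 0.01, with an SE of 0.17 that fell to 0.03 with the replicate block (limma adjusted p = 0.977 and 0.774). With the block and median-of-ratios scaling it was called lower (-0.07, adjusted p = 0.0445), in a setting that called 26.4% of all genes higher and 27.7% lower. The same held for the block and GC correction (-0.08, adjusted p = 0.0277), with 25.3% of all genes higher and 27.1% lower. The genes lie head to head, with the shared stretch printed above between them, and their proteins form 1 complex. The measured ratio of their transcripts differed among libraries, and whether that difference is technical was not tested. Hadha was 1.87, 1.43 and 1.41 times Hadhb in control and 1.865, 1.495 and 1.40 times with RCE. The ratio was highest in replicate 1 of each group and did not separate the groups (1.57 ± 0.26 and 1.59 ± 0.247, SD, n = 3; 2-sided exact permutation test p = 1).

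Offsets of replicate 1 differed among the 9 genes. In Acadm, Acadvl and Hadhb replicate 1 was lower than the mean of replicates 2 and 3 by more than 0.25 on the log2 scale in both groups, by 0.26 to 0.44 in control and 0.36 to 0.46 with RCE. Of all tested genes 7.87% had such an offset in both groups, and 5.72% had one upward. In the 4 carnitine palmitoyltransferase genes replicate 1 was 0.01 to 0.14 above the mean of the others in each group. Hadha (-0.07 in control and -0.11 with RCE) and Acadl (-0.10 and -0.0045) lay between. Over the 6 libraries, as a description, Acadm correlated with Acadvl, Hadha and Hadhb at Pearson r = 0.96, 0.976 and 0.966, and Cpt1a with Cpt1b, Cpt1c and Cpt2 at 0.937, 0.956 and 0.898, while Acadm and Cpt1a were at -0.026. Acadl was at 0.842 with Cpt1a and 0.412 with Acadm. The sources used here do not say what replicate number 1 stands for.

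**Figure D4:**
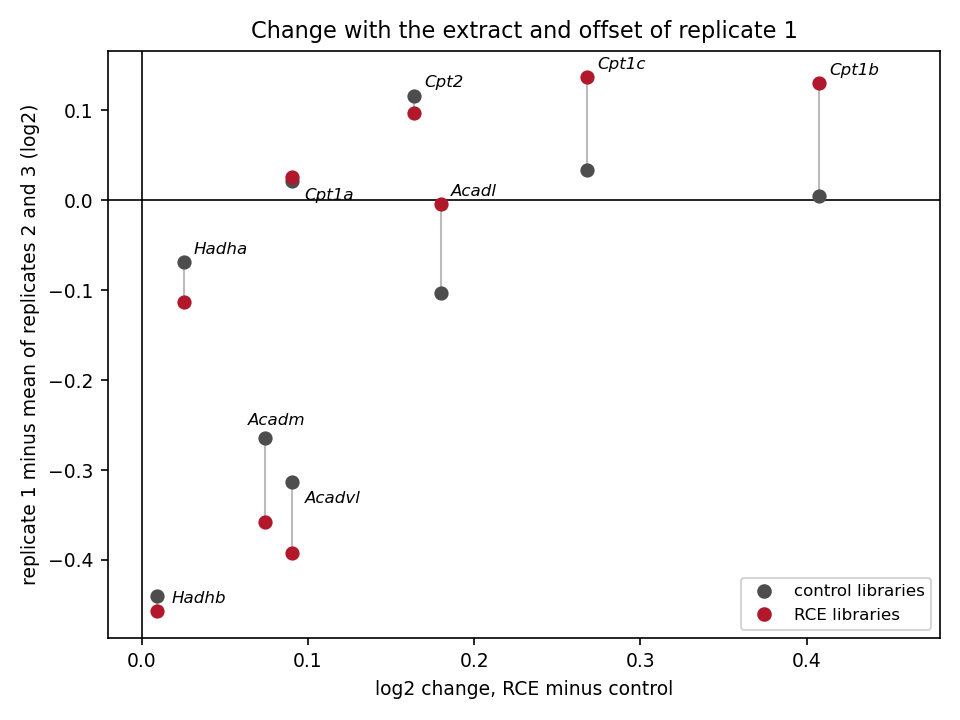
Horizontal axis, log2 change of each gene, RCE minus control; vertical axis, replicate 1 minus the mean of replicates 2 and 3 in log2(FPKM + 1), within control (grey) and within RCE (red), joined for each gene. Hadhb, Acadvl and Acadm lie far below 0 in both groups with small changes, and Cpt1b and Cpt1c lie at the right, near or above 0.

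The genes whose levels were most like Cpt1a over the 6 libraries, among 7815 with a mean of at least 5 FPKM, were Cercam (Pearson r = 0.996), Ppm1g (0.994) and Cpsf3 (0.993). The most opposite were Rac1 (-0.995), Btg2 (-0.993) and Avpi1 (-0.988). With 6 libraries in 2 groups such values are common: 299 genes, 3.83%, reached 0.95.

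The rest of the pathway was read from lists of 95 other genes, of which 94 were in the table and 75 had a mean of at least 1 FPKM. Of these 10 were higher (13.3%) and 1 lower (1.33%) in limma, shares below the 17.6% and 6.77% of all tested genes, and their median change was 0.10. The replicate block gave 43 of the 75 higher and 11 lower, beside 46.6% and 15.9% of all tested genes. Median-of-ratios scaling gave 7 and 4, beside 8.4% and 9.95%. With each of these settings the share that was higher lay above that of all tested genes, and the share that was lower lay below. The lists of carnitine supply and transport (6 tested), other acyl-CoA dehydrogenases (7) and electron transfer to the respiratory chain (4) had 0 calls in either direction in limma. At an unadjusted p below 0.05, 1, 0 and 1 of them were higher and 0 lower, and with the replicate block 3, 6 and 4 were higher, beside 46.6% of all tested genes. The carnitine importer Slc22a5 was at 2.62 ± 0.243 and 3.03 ± 0.397 FPKM (log2 change 0.15, limma adjusted p = 0.252, and 0.012 with the block). Its blocked call ended when median-of-ratios scaling (0.09, adjusted p = 0.0932) or GC correction (0.08, 0.144) was added. The inner membrane carrier Slc25a20 was at 20.97 ± 1.96 and 20.6 ± 1.98 FPKM (-0.03, adjusted p = 0.866, and 0.433 with the block). It was called lower with the block and median-of-ratios scaling (-0.11, adjusted p = 0.0143) and with the block and GC correction (-0.10, 0.0166).

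Among 9 later and auxiliary enzymes of mitochondria, 1 rose in limma (11.1%, beside 17.6% of all tested genes). With the replicate block 7 of the 9 were higher, beside 46.6% of all tested genes, and with median-of-ratios scaling 1 (8.4% of all). Ech1, the isomerase that lets unsaturated fatty acids with a conjugated double bond be oxidised, went from 20.2, 22.5 and 21.6 FPKM to 27.3, 27.7 and 28.9 FPKM. Its groups did not overlap (log2 change 0.37, SE 0.05, limma adjusted p = 0.00536), and the call held in every other setting run. Of 10 peroxisomal genes Phyh, which acts in the oxidation of phytanic acid, rose from 5.37 ± 0.398 to 6.98 ± 0.357 FPKM (log2 change 0.33, adjusted p = 0.0136). The call was lost when control replicate 2 was left out (adjusted p of 0.0507), as with RCE replicate 2 (0.063) or RCE replicate 3 (0.0548).

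Of 8 tested genes that set malonyl-CoA, the inhibitor of CPT1, or encode the AMP-activated kinase, which restrains its synthesis, 3 rose (37.5%, beside 17.6% of all tested genes), and 1 did with median-of-ratios scaling (8.4% of all). Mlycd, the decarboxylase that removes malonyl-CoA, rose from 3.69, 3.86 and 3.59 FPKM to 4.39, 4.56 and 4.45 FPKM (log2 change 0.21, limma adjusted p = 0.0138). Acetyl-CoA carboxylase 1 (Acaca), which makes malonyl-CoA, was at 6.99 ± 0.362 and 7.95 ± 0.364 FPKM (0.16, adjusted p = 0.0705, and 0.0021 with the block). Acacb, the carboxylase tied to the mitochondrial surface, was not tested for its low level and lay at 0.17, 0.16 and 0.15 FPKM in control and 0.23, 0.25 and 0.25 FPKM with RCE. The AMP-activated kinase subunits Prkaa2 (0.28, adjusted p = 0.00363) and Prkaa1 (0.13, 0.0489) also rose. Prkaa2 was scarce, at 0.95 ± 0.0231 and 1.37 ± 0.0425 FPKM. The call of Prkaa1 ended when any 1 library was left out (adjusted p = 0.0791 to 0.163) and with median-of-ratios scaling (0.505). That of Mlycd was lost on median-of-ratios scaling (adjusted p = 0.0508), quantile normalization (0.109) and GC correction (0.126), and without control replicate 3 (0.0591), RCE replicate 2 (0.0709) or RCE replicate 3 (0.0548).

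**Figure D5:**
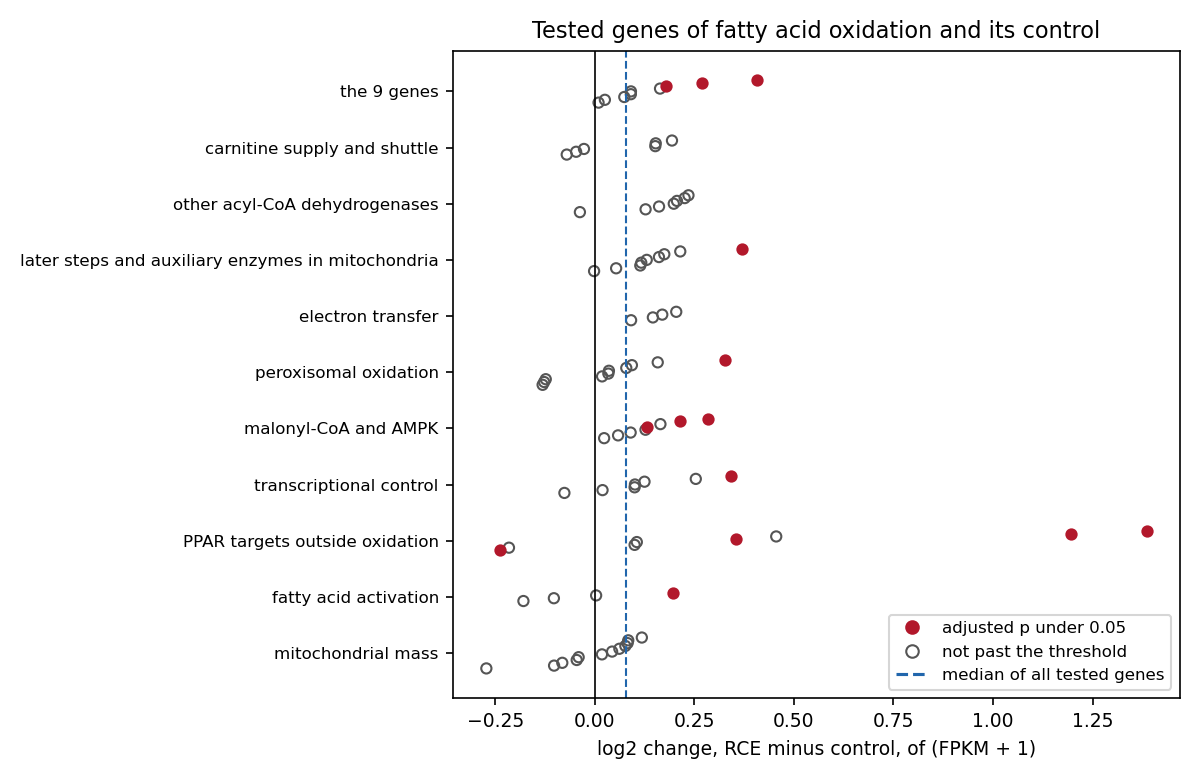
Log2 change, RCE minus control, of each tested gene (horizontal axis) in the 9 genes and in 10 lists of related genes (rows); filled red points have an adjusted p below 0.05, and the dashed line is the median of all tested genes. Most lists straddle that line, and the points farthest to the right are Fabp4 and Angptl4.

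Of the transcription factors that drive oxidation genes, Pparg was the one of 7 tested that rose (14.3%, beside 17.6% of all tested genes). With the replicate block 5 of 7 were higher and 1 lower, beside 46.6% and 15.9% of all tested genes. With median-of-ratios scaling Pparg alone was called, beside 8.4% of all tested genes higher and 9.95% lower. Pparg went from 15.5, 14.0 and 14.0 FPKM to 19.0, 18.5 and 18.6 FPKM (log2 change 0.34, SE 0.05, limma adjusted p = 0.00652), in every setting run. Ppard was at 18.4 ± 2.94 and 17.4 ± 2.80 FPKM (-0.08, adjusted p = 0.737, and called lower with the block, 0.0487). Ppara and Ppargc1a were too low to be tested, at most 0.217 and 0.079 FPKM. PPAR targets outside oxidation were higher in 3 of 8 cases and lower in 1, beside 17.6% and 6.77% of all tested genes. The fatty acid binding protein Fabp4 was at 3.19, 3.72 and 4.45 FPKM in control and 8.94, 12.9 and 12.9 FPKM with RCE (log2 change 1.39, limma adjusted p = 0.00269). Angptl4, a secreted lipase inhibitor, went from 1.67 ± 0.0776 to 5.12 ± 0.139 FPKM (1.195, adjusted p = 4.17e-05). Pdk4, the kinase that turns cells from glucose to fatty acid oxidation, rose by 0.35 (adjusted p = 0.01) and the fatty acid transporter Slc27a1 fell by 0.24 (0.0126). Leaving out RCE replicate 2 ended the calls of Pdk4 (adjusted p of 0.0517) and Slc27a1 (0.0631), and leaving out control replicate 2 that of Slc27a1 (0.0547). Adipocyte markers summed to at most 0.034 FPKM in any library, with Cidec, Lep and Cfd at 0 in all 6.

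Of 4 genes that activate fatty acids to acyl-CoA, 1 was higher and 0 lower in limma, beside 17.6% and 6.77% of all tested genes. Acsl1 was the one that rose (0.20, limma adjusted p = 0.0423). Its call ended in 11 of 19 other settings, among them each library left out (adjusted p = 0.0625 to 0.135). The list went both ways, with a median change of -0.05. With the block 1 was higher and 2 lower (46.6% and 15.9% of all genes), and with median-of-ratios scaling 0 and 1 (8.4% and 9.95%). The genes called lower there, named after their values were seen, were Acsl3 (-0.10, adjusted p = 0.126, 0.0438 with the block and 0.0449 with median-of-ratios scaling) and Acsl5 (-0.18, adjusted p = 0.416 and 0.000704 with the block). Transcripts used as measures of mitochondrial content, such as that of citrate synthase (Cs), had 0 calls among 12 in limma, with 0 higher and 1 lower at an unadjusted p below 0.05. With the block 4 were higher and 3 lower, beside 46.6% and 15.9% of all tested genes. With median-of-ratios scaling 0 were higher and 1 lower, beside 8.4% and 9.95%. That 1, named after its values were seen, was the porin Vdac2, at 95.4 ± 5.21 FPKM in control and 79.0 ± 7.68 FPKM with RCE. Its log2 change was -0.27 (limma adjusted p = 0.06, 0.0214 with median-of-ratios scaling and 0.000276 with the block). The median change of the 12 was 0.03.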

How the data were processed

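RNA-seq levels of 3 control and 3 RCE libraries were deposited as FPKM per gene; per the submitters' processing notes the authors used STAR 2.5.4, Cufflinks and Cuffdiff 2.2.1 with mm10. Library depth was read from the steps between low FPKM values. FPKM are not counts, so log2(FPKM + 1) was tested with limma 3.58.1 (R 4.3.3; empirical Bayes with trend) in every gene averaging 1 FPKM or more, and p-values were adjusted over all of them. The same steps were checked on simulated data with noise drawn independently for each gene and library. That check cannot show how the fit behaves when libraries share deviations, as they do here. Deviations from group means of same-numbered libraries correlated at 0.9185, 0.6196 and 0.6805, and a block that takes numbers as pairs was run as an alternative. Control 3 with RCE 2 (0.7242) and control 2 with RCE 3 (0.7713) correlated more highly than the same-numbered libraries 2 and 3. Pairing by number thus rests on replicate 1. Positions come from GENCODE M21, in which all 21853 genes were found. Other settings were pseudocounts 0.1 and 0.5, no filter or 5 FPKM, median-of-ratios and quantile scaling, no trend, array weights, and libraries left out; GC correction and its combinations were chosen after seeing the data. The members and lists were chosen with earlier results of these data known. All 9 genes are named, and from each other list the called genes (at most 4, by p), with set carnitine, malonyl-CoA and PPAR genes whatever their p.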

Additional observations from a re-analysis of the deposited data

How the results depend on the processing

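Of the 9 genes, 3 were higher; 1 was with median-of-ratios scaling, 5 with the replicate block or array weights, and 1 to 2 with 1 library left out. None was lower, except 1 (Hadhb) with the block and GC correction and 1 with the block and median-of-ratios scaling. Among all genes 1910 were higher and 736 lower. The counts were 867 and 485 at a mean of at least 5 FPKM, 913 and 1082 with median-of-ratios scaling, 785 and 857 with quantile normalization, 5060 and 1730 with the replicate block, 5047 and 1731 with array weights (a fit that stopped before convergence), and 4364 and 1480 without both libraries numbered 1. They were 892 and 1187 with GC correction, 2944 lower with the block and GC correction, 2871 and 3013 with the block and median-of-ratios scaling, and 685 to 2040 and 394 to 734 with 1 library left out. In the wider lists, 10 higher and 1 lower became 4 and 0 at 5 FPKM, 43 and 11 with the replicate block, 35 and 7 with array weights, 37 and 8 without both libraries numbered 1, 21 and 17 with the block and GC correction, and 20 and 16 with the block and median-of-ratios scaling. With 1 library left out they were 5 to 17 higher (17 without RCE replicate 1, 5 without RCE replicate 2) and 0 to 1 lower. Lower calls there were 4 on median-of-ratios scaling, 2 after quantile normalization and 3 after GC correction. Fewer genes are tested at 5 FPKM; for the other settings the cause was not tested.

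Signs turned for changes near 0 that were uncalled in the reported fit; ranges in parentheses are over single libraries left out. Acadm was -0.006541 with median-of-ratios scaling, with or without the block, -0.008012 with GC correction, with or without the block, -0.0141 without control replicate 1 and -0.005273 without RCE replicate 3 (up to 0.1931 without RCE replicate 1). Acadvl was -0.0137 and -0.01182 without those same libraries (up to 0.2212). Hadha was -0.05874 and -0.05163 with median-of-ratios scaling and GC correction, with or without the block. Hadhb was -0.0729 and -0.08341 with these, -0.02732 with quantile normalization, -0.002474 with array weights, and -0.1375, -0.04459 and -0.08914 without control replicate 1, RCE replicate 2 and RCE replicate 3 (up to 0.1616). Ppard was 0.04503 without control replicate 1 and 0.004901 without RCE replicate 3 (down to -0.1969), and Slc25a20 0.03022 without control replicate 3 and 0.05129 without RCE replicate 1 (down to -0.09814); the cause was not tested. The difference in the Cpt1a share ranged from -3.879 to -2.82 percentage points with 1 library left out, and that in the Hadha to Hadhb ratio from -0.1231 to 0.1663. With the pairing kept, the exact p of the Cpt1a share was 0.25, the smallest that 3 pairs can give. Depth limited Cpt1b most.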
